A study of Mus musculus with 12 samples.

Results

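The genes described here are 10 genes of triglyceride storage and of the fasting response: Dgat1, Dgat2, Lpin1, Lpin2, Plin2, Plin4, Pnpla2, Lipe, Pdk4 and Angptl4. They were picked by name from the 54532 genes of the deposited count table, with no threshold on their values but with earlier results of these data known, and each name matched 1 row. Shares of them called beside the share of all genes called are descriptions for that reason. Their RNA was measured in germ cells and somatic cells of the fetal mouse ovary at E15.5, after exposure of the dam to saline or to dexamethasone (dex), a synthetic glucocorticoid that acts through the glucocorticoid receptor. All embryos carried the Pou5f1-GFP reporter (strain Tg(Pou5f1-EGFP)2Mnn), which marks germ cells, and ovaries freed of the mesonephros were sorted into GFP+ germ cells and GFP- somatic cells. Dams received 10 µg of dex per g of body weight, or saline, by intraperitoneal injection once a day from E12.5 to E15.5 (4 injections).

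The 4 groups were therefore germ cells with dex, germ cells with saline, somatic cells with dex and somatic cells with saline, with 3 libraries in each. Ovaries of several litters, dosed separately, were combined for each library, so a library is a pool and not an animal. The somatic fraction held every GFP- cell of the ovary (pregranulosa cells, stroma, blood vessels, blood cells), and in such a mixture fewer cells of a type and less RNA per cell cannot be told apart. Libraries held between 14658503 and 18245507 counts. Values are given below in CPM (a gene's counts scaled to a common library total after TMM normalisation) to compare a gene between libraries. FPKM (the authors' values, scaled for sequencing depth and divided by gene length) is used to compare levels between genes.

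Triglyceride is made by stepwise addition of fatty acids to a glycerol backbone. Lipins, the phosphatidate phosphatases encoded by Lpin1 and Lpin2, supply diacylglycerol, and the unrelated enzymes DGAT1 and DGAT2 add the last fatty acid. The product is kept in lipid droplets coated by perilipins (Plin2, Plin4), and it is broken down by adipose triglyceride lipase (Pnpla2) and then hormone-sensitive lipase (Lipe). Pdk4 encodes a kinase that switches off pyruvate dehydrogenase and so spares glucose while fatty acids are burned, and Angptl4 encodes a secreted inhibitor of lipoprotein lipase. Fasting and glucocorticoids raise Pdk4 and Angptl4 in liver, muscle and fat.

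All 10 genes are protein-coding. The count table places Dgat1 at chr15:76502015-76511953, Dgat2 at chr7:99153658-99182719 and Pdk4 at chr6:5483351-5496309 of GRCm38, each on the minus strand and overlapping no other gene. Lpin2 overlaps Gm26561 on its own strand, Plin4 overlaps Hdgfl2 on the opposite strand and Lipe overlaps the antisense gene 4732471J01Rik. The strand setting of the counting, which bears on Plin4 and Lipe but not on Lpin2, is not given in the sources used here. Overlap was taken over whole gene spans and not over exons. Whether reads of neighbours were counted for Lpin2, Plin4 and Lipe is therefore unknown, and their values are uncertain to that extent.

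The promoters of Pdk4, which rose with dex in somatic cells, and of Lpin1, which was not called there, are printed to set the sequence upstream of a responding gene beside that of another. RefSeq windows on GRCm38.p6, from 250 bases before to 50 after the start of transcription, were found for 7 of the 10 genes (10 windows: Lipe, Lpin1, Lpin2, Pdk4, Plin2, Plin4 and Pnpla2). Capitals mark AGAACA or its reverse complement TGTTCT, the core bound by the glucocorticoid receptor, searched on both strands. The Pdk4 window is chr6:5496229-5496528 and the Lpin1 window is chr12:16610917-16611216, both on the minus strand and printed 5′ to 3′.
Pdk4: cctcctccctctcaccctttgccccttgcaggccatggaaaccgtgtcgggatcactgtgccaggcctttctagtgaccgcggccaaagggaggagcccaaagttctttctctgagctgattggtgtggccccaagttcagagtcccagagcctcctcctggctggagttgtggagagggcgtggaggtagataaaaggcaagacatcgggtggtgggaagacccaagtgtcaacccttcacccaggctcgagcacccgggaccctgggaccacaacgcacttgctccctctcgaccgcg
Lpin1: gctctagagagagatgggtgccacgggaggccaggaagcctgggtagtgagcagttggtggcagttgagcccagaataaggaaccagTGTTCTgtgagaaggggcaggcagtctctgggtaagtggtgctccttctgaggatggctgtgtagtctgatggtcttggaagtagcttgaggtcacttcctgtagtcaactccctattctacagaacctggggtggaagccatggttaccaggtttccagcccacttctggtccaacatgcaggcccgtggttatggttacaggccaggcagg
The core stood at position -163 of the Lpin1 window and at no position of the Pdk4 window. It was present in 2 of the 10 windows (Lpin1 and 1 of the windows of Lpin2) and in 19.0% of the 32851 windows of the whole table. Such a match describes letters in a short window and not a bound site.

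In saline, germ cells and somatic cells differed in the levels of most of these 10 genes, as they did for most genes tested. Germ cells had more RNA of the synthesis genes Dgat1, Dgat2, Lpin1 and Lpin2, and somatic cells had more of Plin2, Pdk4 and Angptl4. The excess did not extend to glycerolipid synthesis as a whole. Of 16 other genes of that pathway tested, 7 were higher in germ cells, 6 were lower and 3 were not called. By edgeR's quasi-likelihood test at an adjusted p of at most 0.05, 9 of the 10 genes differed between the cell types (6 higher in germ cells, 3 lower). The same test called 86.1% of 17941 genes, so differing is the usual case between these fractions. Library values of 8 of the 10 genes did not overlap between the cell types, against 87.1% of all genes.

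In saline germ cells the highest mean level per gene length was that of Dgat1, at 61.5 FPKM ± 8.29 (SD, n = 3). It was followed by Dgat2 at 18.3 FPKM ± 0.761, Lpin2 at 14.6 FPKM ± 0.656 and Lpin1 at 10.6 FPKM ± 0.950. These 4 enzymes of the last steps of triglyceride synthesis took the top 4 places in germ cells, with no overlap between neighbours. Lipe (4.005 FPKM ± 0.226) and Pnpla2 (3.95 FPKM ± 0.635) overlapped each other, as did Angptl4 (1.21 FPKM ± 0.226) and Plin2 (1.14 FPKM ± 0.162). Plin4 (0.214 FPKM ± 0.0986) and Pdk4 (0.120 FPKM ± 0.0590) were lowest, and their libraries overlapped too.

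The order in saline somatic cells was another. Plin2, the perilipin found in most tissues, was highest at 25.1 FPKM ± 1.17 (SD, n = 3), ahead of Angptl4 at 20.0 FPKM ± 2.17 and Dgat1 at 9.36 FPKM ± 1.14. Pnpla2 (4.89 FPKM ± 0.582) and Lpin2 (4.86 FPKM ± 0.503) overlapped each other and lay above Dgat2 (3.66 FPKM ± 0.387). Lipe (2.39 FPKM ± 0.210), Pdk4 (1.97 FPKM ± 0.124), Lpin1 (1.26 FPKM ± 0.157) and Plin4 (0.0951 FPKM ± 0.0205) completed the order, and no neighbours among these last 4 overlapped.

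**Figure D1:**
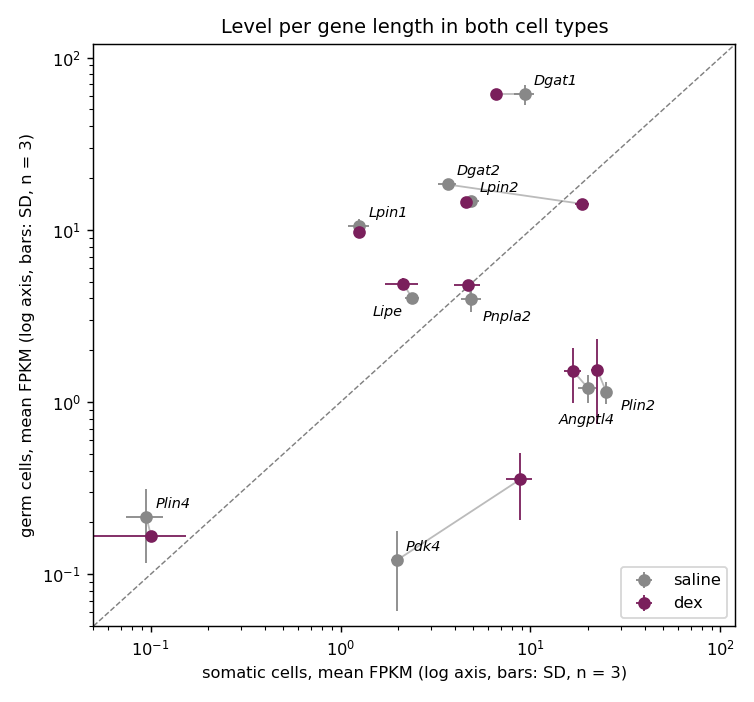
Mean FPKM of each gene in somatic cells (x axis, log scale) and germ cells (y axis, log scale) in saline (grey) and dex (purple), with bars for the SD of 3 libraries and a thin line joining the 2 treatments of a gene. Dgat1, Dgat2, Lpin1, Lpin2, Lipe and Plin4 lie above the dashed line of equal levels in saline. Plin2, Pdk4, Angptl4 and Pnpla2 lie below it. Dgat2 crosses it with dex, and so does Pnpla2, which lies close to it. Pnpla2 was at 3.95 FPKM in germ cells against 4.89 in somatic cells with saline, and 4.80 against 4.69 with dex.

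The size of these differences ranged widely. Lpin1, which encodes the lipin best known from fat and muscle, was 8.13-fold higher in saline germ cells than in somatic cells (log2 difference 3.02, edgeR adjusted p = 1.102e-12). Dgat1 was 6.36-fold higher (7.265e-12), Dgat2 4.85-fold higher (2.59e-11) and Lpin2 2.92-fold higher (1.528e-10). Among Dgat1, Dgat2, Lpin1 and Lpin2 the excess in germ cells was thus smallest for Lpin2. Lipe was 1.62-fold higher in germ cells (edgeR adjusted p = 9.471e-05). Plin4 passed narrowly (log2 difference 1.11, edgeR adjusted p = 0.0406) with libraries that overlapped and CPM near 1, and it failed in 8 of 11 alternative analyses. Pnpla2 did not pass (log2 difference -0.35, edgeR adjusted p = 0.0517), but it was called as lower in germ cells in 5 of 11 alternatives (adjusted p from 0.0193 to 0.0426).

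In the opposite direction, Plin2 was 22.6-fold higher in saline somatic cells than in germ cells (edgeR adjusted p = 3.188e-14). Angptl4 was 17.0-fold higher there (9.556e-13) and Pdk4 16.6-fold higher (2.019e-08). The germ cell level of these 3 genes was 4.37% (Plin2), 5.81% (Angptl4) and 5.88% (Pdk4) of the somatic level in CPM. Markers of pregranulosa cells, the supporting cells that touch the germ cells, summed in the saline germ cell libraries to between 4.75% and 9.21% of their somatic level, while stromal markers summed to between 0.544% and 0.883%. The shares were larger for macrophage (13.9% to 18.0%), endothelial (13.9% to 15.97%) and steroidogenic markers (10.3% to 15.1%). Most of each of these mean sums was 1 gene, named after the values were seen. In saline germ cells these were Mrc1 (31.5 of 39.9 CPM), Tek (27.5 of 49.2 CPM) and Star (6.98 of 11.9 CPM). How much of the Plin2, Angptl4 and Pdk4 RNA in the germ cell libraries came from other cells was not tested.

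Most markers followed the sort. In saline, 6 of 6 germ cell markers were higher in germ cells than in somatic cells, and 9 of 9 pregranulosa, 7 of 7 stromal and 9 of 9 macrophage markers were lower. Of 6 endothelial markers 5 were lower and 1, Tek, named after its values were seen, was higher (27.5 against 12.4 CPM), and of 2 adipocyte markers tested 1 was higher and 1 lower. Between treatments, summed macrophage markers in somatic cells were 61.5 to 144 CPM with dex and 212 to 280 CPM with saline, and 7 of 9 passed the edgeR test as lower. Summed pregranulosa markers were 657 to 944 CPM with dex and 846 to 903 CPM with saline, with 1 of 9 lower. Erythroid markers spread widely in somatic cells, from 3312 to 16493 CPM with dex and from 7390 to 12459 CPM with saline. Endothelial markers had 1 higher and 2 lower of 6, stromal markers 1 higher of 7, and perivascular markers 1 higher of 5, and none of the 5 steroidogenic or 6 mesonephric and surface epithelial markers passed. The summed adipocyte markers stayed under 5 CPM in every somatic library, and Adipoq, the defining adipocyte hormone, had counts in no saline somatic library and a mean of 0.0198 CPM with dex. No marker of any list passed in germ cells between dex and saline.

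Dex was then compared with saline within each cell type, to ask which of these genes respond to the glucocorticoid in which cells. In somatic cells Dgat2 and Pdk4 rose more than 4-fold and Dgat1 fell, and the other 7 genes did not pass the test. In germ cells none of the 10 passed. The 3 of 10 called in somatic cells stand against 8.18% of 16556 genes called there, and the 2 that rose against 4.81% of genes called higher. Over the 10 genes the somatic median was -0.07 on the log2 scale, and over all genes tested it was 0.00. Dex and saline libraries did not overlap for 3 of the 10 genes in somatic cells (25.4% of all genes) and for 4 of the 10 in germ cells (17.4%).

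In germ cells the test called 0.208% of 16857 genes (35 genes), and 0 of the 10 by edgeR. At an unadjusted p under 0.05 the germ cell test listed 3 of the 10 (Dgat2, Lipe and Pdk4) and 1963 of all genes, and DESeq2 called 1 (Dgat2). The median log2 fold change of the 10 genes in germ cells was 0.16, against 0.01 over all genes. All 10 genes were abundant enough to be tested in every comparison.

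**Figure D2:**
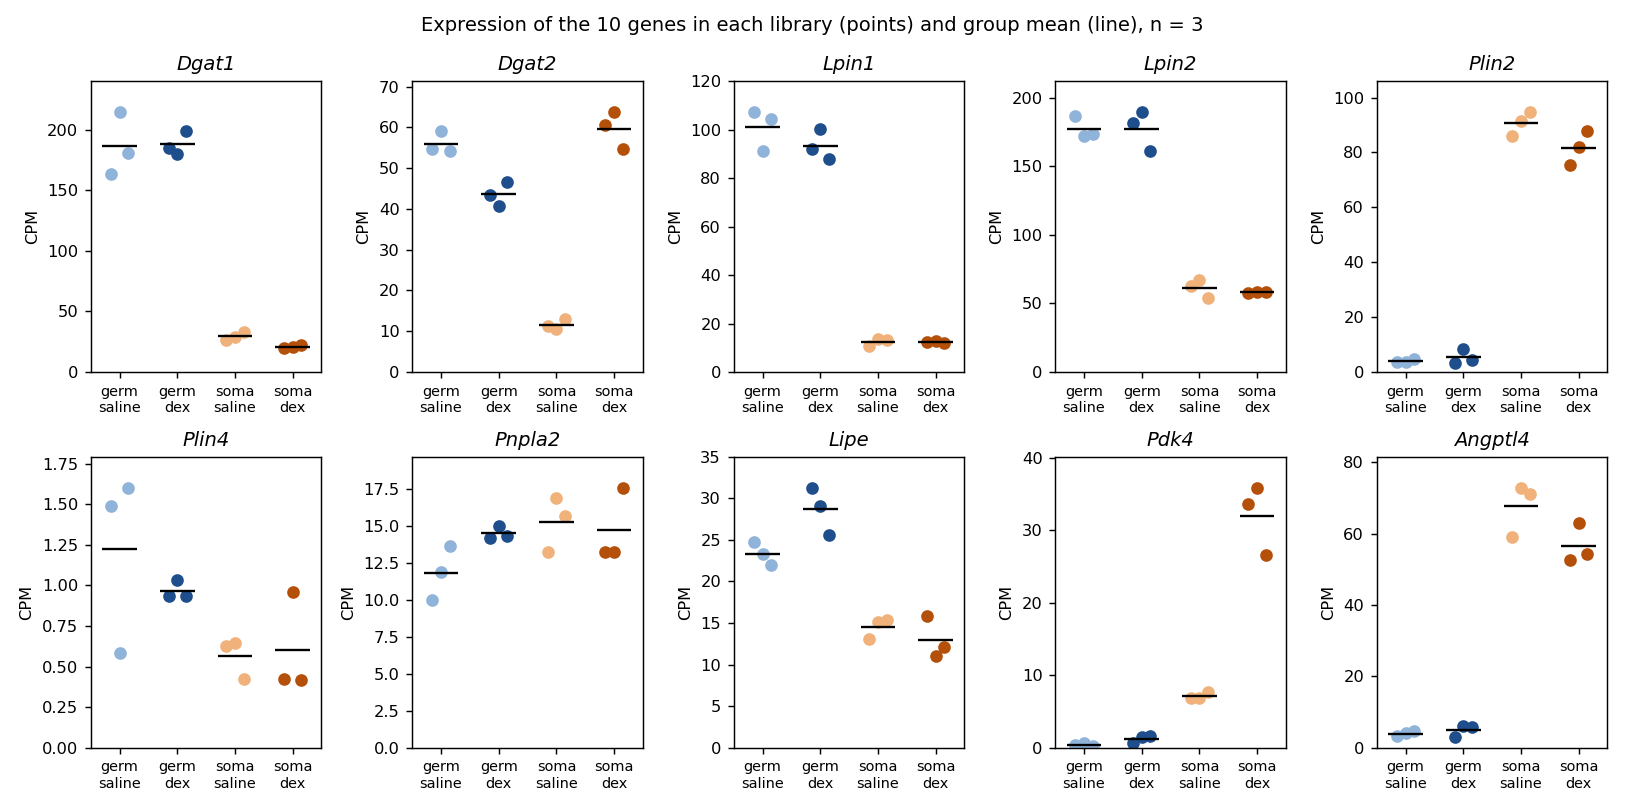
CPM of the 10 genes (1 panel each, y axis from 0) in the 3 libraries of each of the 4 groups, with a line at the group mean. Somatic dex libraries stand apart from somatic saline libraries for Dgat2 (54.6 to 63.7 against 10.6 to 13.0 CPM) and Pdk4 (26.5 to 35.8 against 6.86 to 7.65 CPM).

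Of the enzymes that complete the triglyceride, Dgat2 responded most. In saline somatic libraries Dgat2 was at 11.3, 10.6 and 13.0 CPM, and in dex somatic libraries at 60.5, 63.7 and 54.6 CPM. Every dex library lay more than 4 times above every saline library. The fitted rise was 5.11-fold (log2 fold change 2.35 ± 0.11 SE, 95% interval 2.12 to 2.58, edgeR adjusted p = 2.652e-08). In germ cells the values were 54.7, 59.0 and 54.2 CPM with saline and 43.4, 40.8 and 46.6 CPM with dex. The dex libraries of germ cells were all below the saline ones, but the fall did not pass the correction (log2 fold change -0.35 ± 0.08 SE, edgeR adjusted p = 0.137). DESeq2, and edgeR without the filter on low counts, did call it (adjusted p = 0.047 and 0.014).

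The response of Dgat2 differed between the cell types. The germ cell effect minus the somatic effect was -2.72 on the log2 scale (95% interval -3.00 to -2.43, edgeR adjusted p = 4.352e-09), and Dgat2 was the only one of the 10 to pass this test, which called 1.62% of 19390 genes. Its mean in somatic cells was 20.8% of the germ cell level in saline and 137% of it with dex. Germ cell markers in somatic libraries summed to 15.3 to 20.6 CPM with dex and 2.89 to 6.06 CPM with saline, against 2453 to 2965 CPM in germ cells. Of the dex sum, 12.8 CPM on average was Dazl, a germ cell RNA-binding protein gene and the only 1 of the 4 germ cell markers tested in somatic cells to be called. Somatic Dgat2 with dex, at 59.6 CPM ± 4.60 (SD, n = 3), lay above the 43.6 CPM ± 2.94 of germ cells with dex.

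Dgat1, the other enzyme of this step, moved the opposite way in somatic cells. Its somatic libraries were at 26.1, 29.1 and 33.2 CPM with saline and at 19.8, 20.7 and 21.9 CPM with dex, with no overlap. Dgat1 fell by 0.51 on the log2 scale (SE 0.11, 95% interval -0.75 to -0.26, edgeR adjusted p = 0.0140). The call was lost without saline somatic library 2 (adjusted p = 0.0539) or 3 (0.0809), and macrophage markers moved down in the same libraries, whose part in the fall was not tested. Germ cell libraries were at 164, 214 and 180.4 CPM with saline and at 185, 180.2 and 199 CPM with dex, and overlapped (log2 fold change 0.02, 95% interval -0.18 to 0.22, edgeR adjusted p = 0.953). The difference between the cell types was 0.52 on the log2 scale and missed the threshold (edgeR adjusted p = 0.0924).

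The balance of Dgat1 and Dgat2 RNA in the mixed somatic fraction therefore differed between dex and saline. Per gene length, the ratio of Dgat2 to Dgat1 was 0.392 ± 0.0331 (SD, n = 3) in saline somatic cells and 2.85 ± 0.328 with dex, a 7.26-fold higher ratio. The 3 dex ratios (2.47 to 3.05) did not overlap the saline ratios (0.362 to 0.428), and the two-sided exact permutation p of 0.1 is the smallest that 3 against 3 libraries allow. Dgat1 and Dgat2 summed to 13.0 FPKM ± 1.45 with saline and 25.3 FPKM ± 1.43 with dex (exact permutation p = 0.1). Somatic cells thus went from mostly Dgat1 to mostly Dgat2 RNA per gene length.

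Germ cells stayed on the Dgat1 side in both treatments. Their ratio of Dgat2 to Dgat1 was 0.301 ± 0.0291 (SD, n = 3) with saline and 0.230 ± 0.00489 with dex (exact permutation p = 0.1, the smallest possible). Their summed level was 79.9 FPKM ± 9.01 with saline and 75.6 FPKM ± 4.78 with dex (exact permutation p = 0.7), so after dex the somatic sum was still the lower.

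**Figure D3:**
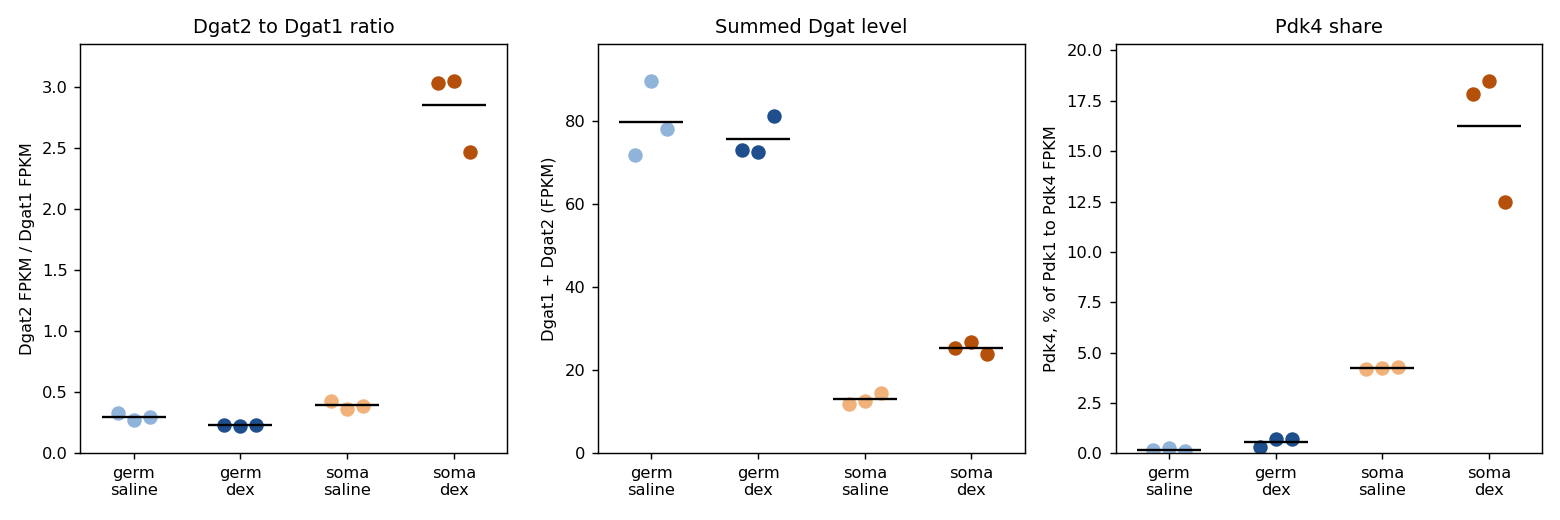
Ratio of Dgat2 to Dgat1 FPKM (left), their summed FPKM (middle) and Pdk4 as a percentage of the summed FPKM of Pdk1 to Pdk4 (right) in each library (points) of the 4 groups, with a line at the group mean. Somatic dex libraries have ratios of 2.47 to 3.05 against 0.362 to 0.428 with saline, and Pdk4 shares of 12.48 to 18.5% against 4.18 to 4.29%.

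Lpin1 and Lpin2, which feed diacylglycerol to the DGAT enzymes, did not pass in either cell type. Somatic Lpin1 was at 10.7 to 13.7 CPM with saline and 12.2 to 12.9 CPM with dex, and the interval of its log2 fold change ran from -0.30 to 0.31 (edgeR adjusted p = 0.999). Germ cell Lpin1 was at 91.2 to 107 CPM with saline and 87.8 to 100.4 CPM with dex (log2 fold change -0.10, edgeR adjusted p = 0.649). Lpin2 had narrow intervals, and its log2 fold change was -0.08 in somatic cells (95% interval -0.26 to 0.09) and 0.01 in germ cells, with SE of 0.08 and 0.07. The ratio of Lpin1 to Lpin2 per gene length was 0.720 with saline and 0.667 with dex in germ cells (exact permutation p = 0.2), and 0.261 and 0.274 in somatic cells (exact permutation p = 0.7).

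Neither perilipin passed. Somatic Plin2 was at 86.1, 91.6 and 94.7 CPM with saline and 75.4, 81.8 and 87.6 CPM with dex, with overlap (log2 fold change -0.16, 95% interval -0.31 to 0.00, edgeR adjusted p = 0.240). Germ cell Plin2 was at 3.55, 3.79 and 4.57 CPM with saline and 3.21, 8.47 and 4.49 CPM with dex. Its germ cell mean with dex was set by the second library, and that library also had the highest pregranulosa marker sum (118 CPM against 33.4 and 94.8). In the third library Plin2 was at 4.49 CPM with a marker sum of 94.8 CPM. The part of other cells in germ cell Plin2 was not tested. Plin4, a perilipin of fat and muscle, was at 0.416 to 0.958 CPM in all somatic libraries and 0.583 to 1.60 CPM in all germ cell libraries. Its log2 fold change had SE of 0.55 in somatic cells (95% interval -1.10 to 1.28) and 0.44 in germ cells, so a 2-fold change in somatic cells lies within its interval.

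The lipases did not pass either. Somatic Pnpla2 was at 13.2 to 16.8 CPM with saline and 13.2 to 17.5 CPM with dex (log2 fold change -0.06, edgeR adjusted p = 0.872), and somatic Lipe at 13.0 to 15.4 CPM and 11.04 to 15.9 CPM (log2 fold change -0.17, edgeR adjusted p = 0.611). In germ cells both sat a little higher with dex in all 3 libraries. Germ cell Pnpla2 was at 9.95, 11.9 and 13.6 CPM with saline and 14.2, 14.99 and 14.3 CPM with dex (log2 fold change 0.30, edgeR adjusted p = 0.481). Germ cell Lipe was at 24.8, 23.3 and 21.9 CPM with saline and 31.3, 29.1 and 25.7 CPM with dex (log2 fold change 0.30, 95% interval 0.06 to 0.54, edgeR adjusted p = 0.328). These separations are within what 17.4% of all germ cell genes showed.

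Among the fasting genes Pdk4 rose and Angptl4 did not. Somatic Pdk4 was at 6.86, 6.90 and 7.65 CPM with saline and at 33.6, 35.8 and 26.5 CPM with dex. No libraries overlapped, and the third dex library, the lowest of the 3, was still more than 3 times the highest saline library. Pdk4 rose 4.47-fold (log2 fold change 2.16 ± 0.14 SE, 95% interval 1.85 to 2.47, edgeR adjusted p = 5.951e-07). Pyruvate dehydrogenase has several kinases, and Pdk4 made up 4.23% ± 0.0554 (SD, n = 3) of the summed FPKM of Pdk1 to Pdk4 in saline somatic cells and 16.3% ± 3.30 with dex (exact permutation p = 0.1). The summed kinase level was 46.6 FPKM ± 2.35 with saline and 54.6 FPKM ± 3.05 with dex (exact permutation p = 0.1), so even after dex Pdk4 was a minor part of it.

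Germ cell Pdk4 was low in every library, at 0.388, 0.641 and 0.229 CPM with saline and 0.669, 1.42 and 1.63 CPM with dex. The dex libraries were all above the saline ones, but the lowest dex library lay just over the highest saline library and the change did not pass (log2 fold change 1.56 ± 0.53 SE, 95% interval 0.42 to 2.71, edgeR adjusted p = 0.293). The gain in mean germ cell level was 0.822 CPM, which is 3.31% of the somatic gain of 24.9 CPM. In the same germ cell dex libraries the summed pregranulosa markers were 4.35%, 15.4% and 12.4% of their somatic level. Stromal markers were at 0.690%, 1.08% and 0.600%, and perivascular markers at 1.86%, 1.88% and 1.86%. Library 1 was lowest for both Pdk4 and the pregranulosa markers, while stromal markers were lowest in library 3, where Pdk4 was highest. The part of other cells in the germ cell values was not tested. The germ cell and somatic effects on Pdk4 did not differ beyond their error (difference -0.60, 95% interval -1.63 to 0.44, edgeR adjusted p = 0.606), an interval too wide to show that they were alike.

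Angptl4 was an abundant somatic gene that missed the threshold. Its somatic libraries were at 59.2, 72.9 and 71.3 CPM with saline and 52.6, 62.9 and 54.5 CPM with dex. These overlapped, and the log2 fold change was -0.26 (95% interval -0.47 to -0.05, edgeR adjusted p = 0.132). The interval lies below 0 on either bound, so a rise like that of Pdk4 was outside it. Without the filter on low counts the fall was called (adjusted p = 0.0229), as it was with replicate numbers as a block (0.0394). Germ cell Angptl4 was at 3.17 to 4.57 CPM with saline and 3.01 to 6.07 CPM with dex (log2 fold change 0.35, edgeR adjusted p = 0.663).

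**Figure D4:**
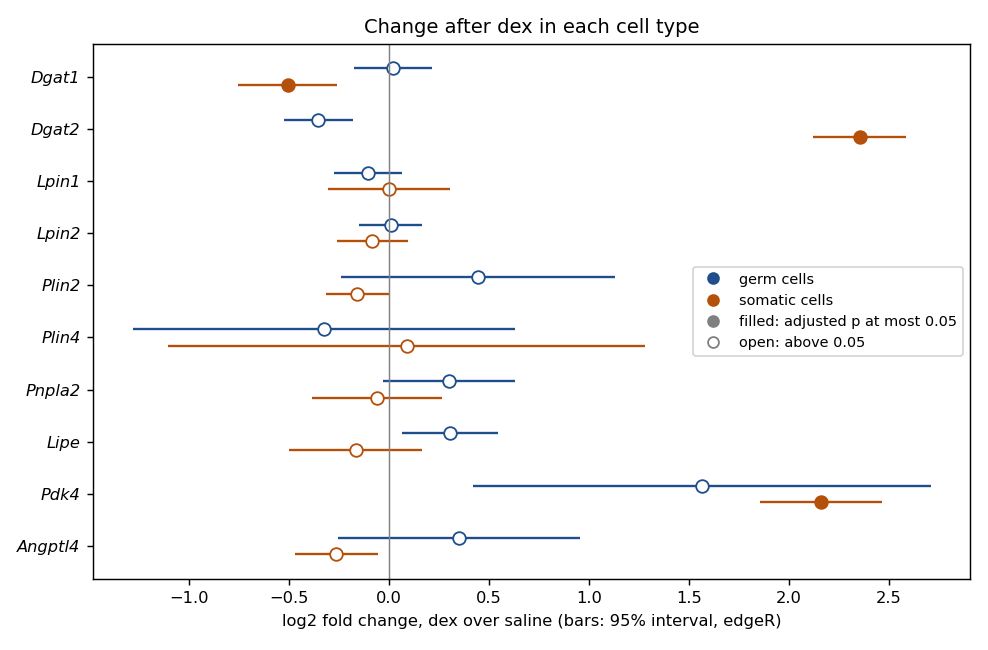
Log2 fold change of dex over saline (x axis) with its 95% interval for each of the 10 genes in germ cells (blue) and somatic cells (orange), where filled points passed edgeR's test at an adjusted p of at most 0.05. Dgat2 (2.35), Pdk4 (2.16) and Dgat1 (-0.51) are filled, all in somatic cells, and no germ cell point is filled.

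The libraries that responded also differed within the somatic dex group. Library 3 was the lowest of the 3 for both Dgat2 (54.6 CPM) and Pdk4 (26.5 CPM), and the highest for Dgat1 (21.9 CPM), Plin2 (87.6 CPM) and Pnpla2 (17.5 CPM). Leaving it out, or any other library, kept the calls of Dgat2 and Pdk4, whose log2 fold changes then ranged from 2.29 to 2.44 and from 2.05 to 2.28.

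Genes with the pattern most like each responding gene were ranked by Pearson's r of log2(CPM + 0.5) over the 12 libraries, after the mean of each cell type was removed. These are descriptions over libraries that share treatment, cell type and depth. Closest to Dgat2 were Tsc22d3 (GILZ, a well known glucocorticoid-induced gene, r = 0.989), Hlf (a PAR bZIP transcription factor, r = 0.985) and Dazl (r = 0.981). Tsc22d3 shared more than the response, since it too was higher in germ cells: it was at 391 CPM with saline and 379 CPM with dex in germ cells, and at 66.1 CPM and 140.5 CPM in somatic cells.

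Closest to Pdk4 were Zbtb16 (a zinc finger transcription factor known to be induced by glucocorticoids, r = 0.976), 6030408B16Rik (r = 0.972) and Nt5dc2 (r = 0.955). Somatic Zbtb16 was at a mean of 0.559 CPM with saline and 70.1 CPM with dex. Closest to Dgat1 were Prex1 (r = 0.936), the circadian clock gene Arntl (r = 0.934) and Rtca (r = 0.930). Dgat2 and Pdk4 had r = 0.819 with each other.

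Around these 10 genes, 125 other genes of lipid and pyruvate metabolism were counted in 8 lists. In somatic cells 110 of them were tested, 14 rose and 5 fell with dex, or 17.3% called, beside 8.18% of all genes. In germ cells 104 were tested and 1 rose (0.962%, beside 0.208% of all genes). The test of the difference between cell types called 4 of 113 (3.54%, beside 1.62%), each with the lower effect in germ cells. In saline 96 of 113 (85.0%) differed between the cell types, 35 higher in germ cells and 61 lower. Of the 19 somatic calls, 9 were made under every alternative analysis and 10 were lost under at least 1.

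In glycerolipid synthesis, the steps that lead to the DGAT enzymes, 1 of 16 genes rose in somatic cells (median log2 fold change 0.03). It was Agpat4, an acyltransferase, at 18.3 CPM ± 1.93 with saline and 24.6 CPM ± 2.03 with dex (n = 3, edgeR adjusted p = 0.0427), a call lost in 7 of 11 alternatives. The only germ cell call of all 8 lists was Lpin3, the third lipin. It was at 51.8 CPM ± 1.85 with saline and 68.2 CPM ± 1.17 with dex in germ cells (log2 fold change 0.40, edgeR adjusted p = 0.0435), and the call was lost in 8 of 11 alternatives, among them each of the 6 that left out a library (adjusted p from 0.0725 to 0.245). The most abundant gene of the list per length was Gpat2 in germ cells (164 FPKM) and Agpat1 in somatic cells (28.1 FPKM).

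In lipolysis 1 of 9 genes rose in somatic cells (median 0.08), and it was G0s2, which encodes an inhibitor of the lipase made by Pnpla2. G0s2 went from 10.9 CPM ± 1.45 to 34.3 CPM ± 5.06 (n = 3, log2 fold change 1.65 ± 0.14 SE, edgeR adjusted p = 7.048e-06), and it was called under all alternatives. In germ cells G0s2 was at 0.161 CPM with saline, at or under the level of 3 counts (0.169 to 0.201 CPM) on average, and at 0.669 to 2.91 CPM with dex (edgeR adjusted p = 0.0812). Ddhd2 (33.3 FPKM in germ cells) and Lipa (19.5 FPKM in somatic cells) were the most abundant of this list. Of the droplet coat and formation genes 1 of 11 rose in somatic cells (median 0.02), Hsd17b11, a droplet-associated dehydrogenase, from 59.5 to 76.2 CPM (edgeR adjusted p = 0.0168, lost in 4 of 11 alternatives). Rab18 was the most abundant of that list in both cell types (36.1 FPKM in germ cells and 48.0 FPKM in somatic cells).

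Fatty acid uptake and activation had 3 higher and 1 lower of 13 in somatic cells (median -0.06). The genes that rose encode the fatty acid binding proteins Fabp4 and Fabp5 and the lipoprotein receptor Vldlr. Fabp5 rose from 28.1 CPM ± 1.57 to 60.7 CPM ± 4.52 (n = 3, log2 fold change 1.11, edgeR adjusted p = 3.675e-06) and Vldlr from 31.9 CPM ± 1.95 to 65.9 CPM ± 7.15 (1.04, 1.135e-05), both under all alternatives. Fabp4, known from fat and capillaries, went from 2.48 to 6.39 CPM and lost its call without dex library 2, saline library 2 or saline library 3 (adjusted p up to 0.0676). Slc27a4 (26.5 FPKM in germ cells) and Slc27a1 (15.2 FPKM in somatic cells), which encode fatty acid transport proteins, were the most abundant.

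Fatty acid oxidation and ketogenesis had 3 higher and 1 lower of 19 in somatic cells (median 0.10). The mitochondrial thiolase Acaa2 rose from 138 CPM ± 7.14 to 231 CPM ± 22.2 (n = 3, log2 fold change 0.73, edgeR adjusted p = 5.349e-05). The thioesterase Acot1 rose from 57.9 to 89.9 CPM (0.63, edgeR adjusted p = 0.000209), a call lost when all 12 libraries shared 1 fit. Acads, the short-chain acyl-CoA dehydrogenase, fell from 34.0 to 26.7 CPM (edgeR adjusted p = 0.0472) and lost its call in 6 of 11 alternatives. Cpt2 was the most abundant of the list in germ cells (41.8 FPKM) and Acaa2 in somatic cells (88.6 FPKM).

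Beside Pdk4, 1 of the 12 genes of pyruvate dehydrogenase control rose in somatic cells (median 0.05). It was Pdp1, a phosphatase that removes the phosphate set by the Pdk kinases, so a kinase and an opposing phosphatase rose in the same libraries. Pdp1 went from 28.1 CPM ± 2.57 to 54.1 CPM ± 7.19 (n = 3, log2 fold change 0.94 ± 0.11 SE, edgeR adjusted p = 0.000111). In germ cells Pdp1 was at 103 CPM with saline and 96.9 CPM with dex, and the difference of effects was -1.04 on the log2 scale (edgeR adjusted p = 0.000404), called under all alternatives. Dld, a subunit of the complex itself, was the most abundant in both cell types (91.3 FPKM in germ cells and 24.7 FPKM in somatic cells).

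Fatty acid synthesis had 2 higher and 1 lower of 12 in somatic cells (median -0.05). Both genes that rose encode stearoyl-CoA desaturases: Scd1 went from 27.3 to 39.1 CPM (edgeR adjusted p = 0.0144) and Scd2 from 850 to 1029 CPM (0.0167), and each lost its call in 4 of 11 alternatives. Acly, which makes cytosolic acetyl-CoA, fell from 187 CPM ± 7.53 to 151 CPM ± 5.37 (n = 3, log2 fold change -0.31, edgeR adjusted p = 0.00568) under all alternatives. Acly was the most abundant of the list in germ cells (34.0 FPKM) and Scd2 in somatic cells (151 FPKM).

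Among the lipid regulators 2 of 18 rose and 2 fell in somatic cells (median -0.08). The fatty acid receptor Ppard rose by 0.63 on the log2 scale, from 34.5 to 53.5 CPM (edgeR adjusted p = 0.00278) and the forkhead factor Foxo3 from 149 CPM ± 9.92 to 219 CPM ± 1.33 (0.55, 0.000101). Srebf2, the regulator of cholesterol synthesis, fell from 195 to 154 CPM (-0.35, edgeR adjusted p = 0.00322), and Insig1, which holds it back, fell from 46.6 to 35.5 CPM (-0.40, 0.0132, lost without saline somatic library 2 at 0.0915). In saline the most abundant regulators per length were Insig1 in germ cells (44.0 FPKM) and Srebf2 in somatic cells (26.4 FPKM).

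The dex effect differed between cell types for Foxo3 (germ cell minus somatic log2 effect -0.80, edgeR adjusted p = 0.00276) under all alternatives, and for Foxo1 (-0.52, 0.0259) and Vldlr (-1.41, 0.0316) in only 6 of 16 each. None of the 3 passed within germ cells.

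**Figure D5:**
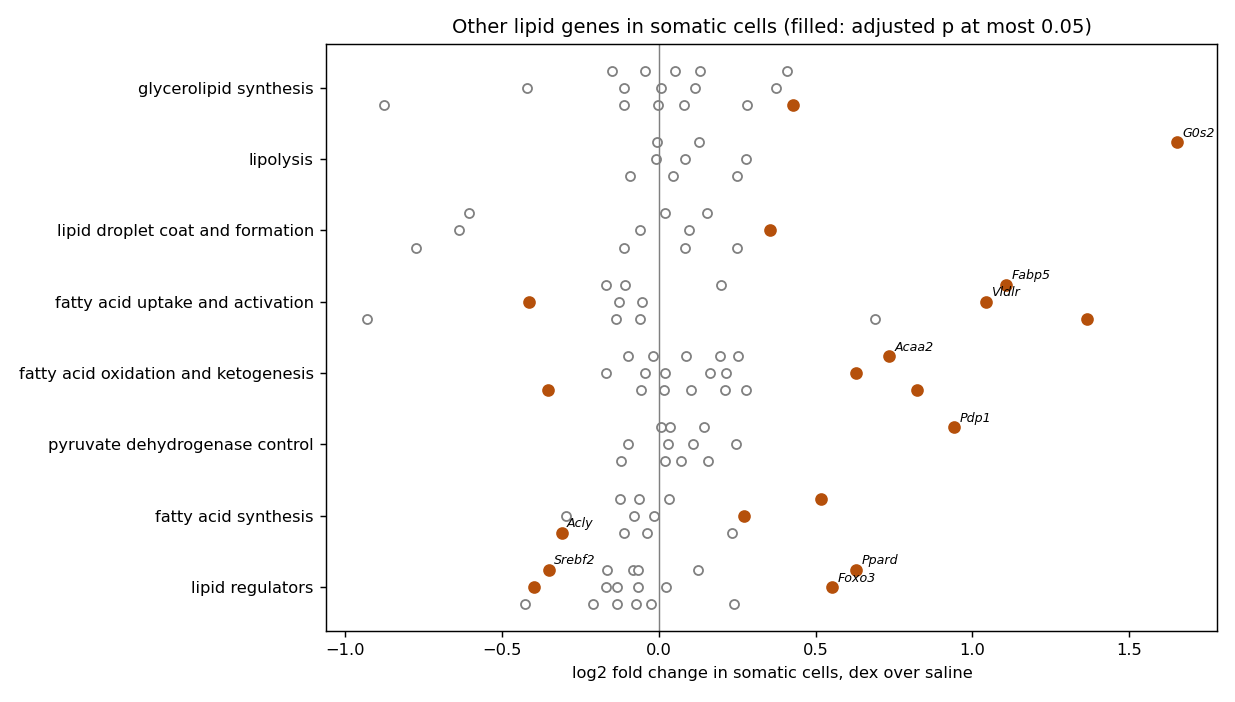
Log2 fold change of dex over saline in somatic cells (x axis) for each tested gene of the 8 lists of other lipid and pyruvate genes (rows, with points spread vertically to be seen). Filled points passed edgeR's test at an adjusted p of at most 0.05, and those called under all alternatives are named: 14 filled points are to the right of 0 and 5 to the left, with G0s2 (1.65) farthest right.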

How the data were processed

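RNA-seq of 12 libraries was analysed from 2 deposited tables. The authors aligned paired-end reads to mm10 with HISAT2 (2.0.5) and made the raw counts per gene with featureCounts (1.5.0-p3), per their methods and the submitters' processing notes. The deposited FPKM values were also made by the authors, and the gene length (other) in the deposited table is theirs. Strand and multimapping settings are not given in the sources used here. The deposited tables of the authors' own comparisons (fold changes and p-values from their DESeq2 1.20.0 runs) were not used.

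Counts were tested with edgeR 4.0.16 (R 4.3.3; TMM, filterByExpr, quasi-likelihood F test) over all genes, with Benjamini-Hochberg adjustment and a threshold of 0.05. Each comparison was fitted on its own 6 libraries, and the difference of effects on all 12. CPM is the count scaled to the library total times the TMM factor. A level of 3 counts corresponds to 0.169 to 0.201 CPM, which covers counting error only. Alternatives were DESeq2 1.42.0, no low-count filter, another normalisation, a replicate block, a common fit and each library left out. FPKM ratios were compared by two-sided exact permutation tests. The fits were tested on simulated data.

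All 10 genes are named. A list gene is named where a dex comparison called it or where its saline FPKM was the highest of its list, and for called members the 3 most similar genes are named. Some list genes that meet this rule are counted but not reported by name here. Members and lists were chosen with earlier results of these data known.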

Additional observations from a re-analysis of the deposited data

Results flagged for a closer look

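Dgat2 is given here because its response to dex differed between the cell types by a test of the difference itself. The germ cell log2 effect minus the somatic log2 effect was -2.72 (edgeR, adjusted p = 4.352e-09), with Dgat2 lower in 3 of 3 germ cell dex libraries and higher in 3 of 3 somatic dex libraries than in any saline library of the same cells. It was called in all 16 alternatives, with values from -2.80 to -2.65 when a library was left out.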

How the results depend on the processing

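Dgat2 and Pdk4 were called in somatic cells in all 11 alternatives. No value of the 10 genes reversed a call: 467 alternative values kept their side of the threshold, 10 lost and 13 gained a call. In germ cells the number of the 10 genes called was 0, but 1 without the low-count filter and 1 with DESeq2 (Dgat2 in both). For the difference between cell types it was 1, but 2 without the filter and 2 with DESeq2 (Dgat1 added), and 1 to 2 with a library left out (Angptl4 added without germ cell dex library 1, adjusted p = 0.0386, and Dgat1 without germ cell saline library 2, 0.0221). In somatic cells 3 were called, 2 to 3 with a library left out. In saline 9 were called, and 8 to 10 over the alternatives.

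Over all genes, germ cells had 35 calls, 17 to 81 with a library left out, 420 without the filter, 158 with DESeq2 and 64 with all 12 libraries in 1 fit. Somatic cells had 1354, 754 to 1881 with a library left out and 803 in the common fit. The difference had 314, 143 to 384 with a library left out, 727 without the filter and 620 with DESeq2. The causes were not tested. With replicate numbers as a replicate block, 0 of the 10 genes were called in germ cells, 4 in somatic cells (Angptl4 added), 1 for the difference and 9 in saline, where Plin4 was lost (adjusted p = 0.0918) and Pnpla2 gained (0.0383). The block also lost the differences of Vldlr (0.0654) and Foxo1 (0.0502). Deviations of same-numbered dex and saline libraries correlated at 0.17, 0.00 and 0.06 in germ cells and 0.08, 0.00 and 0.04 in somatic cells. Between same-numbered germ cell and somatic libraries they correlated at 0.09, 0.07 and 0.11 with saline and 0.11, 0.08 and 0.12 with dex. Each of these libraries correlated more with its own number in the other cell type than with other numbers. The largest of all these values, 0.17, was between the dex and saline germ cell libraries numbered 1. What same-numbered libraries share was not tested. The sources used here do not say which libraries share a pool, so germ cell and somatic libraries were tested as independent. With 3 pooled libraries a group, p-values measure the spread between these pools. Plin4 and germ cell Pdk4 rest on few counts (7 to 28 and 4 to 28 a library), and what else sets their spread was not tested.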

Other observations

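Some fatty acid genes that rose in somatic cells also had higher means in germ cell dex libraries, with wide spread and without passing the test. Scd2 was at a mean of 19.2 CPM ± 6.48 (SD, n = 3) with saline and 42.0 CPM ± 20.7 with dex, and Acot1 at 1.84 CPM ± 0.404 and 5.29 CPM ± 3.56. Summed pregranulosa markers in the same libraries were 41.6 to 80.6 CPM with saline and 33.4 to 118 CPM with dex. Stromal markers summed to 118 to 192 CPM with saline and 138 to 249 CPM with dex. Perivascular markers summed to 6.27 to 8.63 CPM and 10.2 to 10.3 CPM. The part of other cells in the Scd2 and Acot1 values was not tested.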
